A study of Mus musculus with 12 samples.

Results

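Laminins are the first proteins laid down in a basement membrane, the thin protein sheet on which epithelia and early embryonic cells sit. Each laminin is a cross-shaped trimer of 1 alpha, 1 beta and 1 gamma chain, and the trimer is named by its chains, so that laminin-111 holds alpha 1, beta 1 and gamma 1. Laminin-111 and laminin-511 are the trimers of the early embryo, and both are used as substrates for pluripotent cells. Laminin-332, which holds alpha 3 and beta 3, belongs to mature epithelia such as skin, where it anchors cells through hemidesmosomes. YAP, the coactivator that the Hippo pathway restrains, acts mainly through TEAD transcription factors, and adhesion to the matrix is among the signals known to regulate it.

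Laminin chain genes, 8 of the 24480 genes in the tables, are described here: Lama1, Lama3, Lama4 and Lama5 for alpha chains, Lamb1, Lamb2 and Lamb3 for beta chains, and Lamc1 for the gamma 1 chain. They were selected by name, in part because the Lamb3 level was low after YAP knockdown. The knockdown values of the 8 genes are therefore given as a description with no test, and these genes are tested in the overexpression alone.

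RNA came from E14Tg2a mouse embryonic stem cells (ESCs), grown without feeder cells on gelatin in serum with leukemia inhibitory factor and transfected transiently with a lipid reagent. The knockdown compared a mix of Stealth siRNAs against mouse YAP (YAP KD) with scrambled siRNA (CTR KD). The study took this RNA at the time after transfection when it reports YAP at its lowest. It gives no separate time for the overexpression. The overexpression compared the pCAG-mYAP plasmid, in which a CAG promoter drives mouse YAP (YAP OE), with a control plasmid (CTR OE), given in the labels as GFP and in the study's text as an empty vector. Each of the 4 groups holds 3 libraries, described as independent biological samples. Each library is a transfected pool, so transfected and untransfected cells were measured together, and fewer cells of a type cannot be told apart from less RNA per cell.

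Library totals ranged from 42926256 to 57240703 expected counts, and all 8 laminin chain genes passed the filter on low counts in both experiments. Yap1 itself went from 125.4 ± 9.40 to 56.7 ± 1.80 CPM (counts scaled to library size, SD, n = 3) on knockdown, and from 132.6 ± 2.02 to 258.9 ± 16.6 CPM on overexpression, where transcripts of the plasmid and of the gene are counted together. The 8 ESC markers (Pou5f1, Sox2, Nanog and others) summed to 5858 to 6058 CPM in CTR KD and 5548 to 5884 in YAP KD. They summed to 5761 to 5853 CPM in CTR OE and 5636 to 6030 in YAP OE. In each experiment 4 of their log2 fold changes were positive and 4 negative, and 0 were called. Among CTR KD libraries, replicate 2 stood apart: its 500 genes of highest GC content lay at a median of 0.117 (log2) above their mean over all libraries, against -0.078 to 0.047 in the other 11 libraries. Lama5, Lamb2 and Lamb3 are themselves GC-rich transcripts (59.9%, 58.8% and 57.3% GC), and values without this library are given for Lama5, Lamb1, Lamb2 and Lamc1.

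Lamb3 encodes the beta 3 chain, which occurs in laminin-332. It lies at chr1:193294353-193343878 (GRCm38) on the plus strand. The RefSeq promoters used give 2 start sites for it, at positions 193301994 and 193302243, called upstream and downstream here by their order. The annotated start of the gene lies upstream of both, and the sequence around it was not searched. RefSeq promoters of 4 of the 8 genes were used (Lamb3, Lama5, Lamb1 and Lamb2), with 5 promoters in all. Each covered 250 bases before to 50 bases after a start site. Promoters of Lama1, Lama3, Lama4 and Lamc1 were not searched, so nothing is said of them. The TEAD core motif GGAATG, or CATTCC on the other strand, was searched in the 5 promoters. Of all 32851 RefSeq promoters, 4817 (14.66%) held it on either strand. It occurred in 1 of the 5, the one at the downstream Lamb3 start, where the first base of CATTCC lay at -167 from the start. Both Lamb3 windows are shown, since Lamb3 is the gene whose level moved furthest, and beside them the Lama5 window. These were the only 2 of the 8 genes with all YAP KD libraries below and all YAP OE libraries above their controls. Over all genes, groups did not overlap, in either direction, for 25.7% on knockdown and 18.2% on overexpression. Nothing is read from this count, and Lama5 was not called on overexpression. The capitals mark the motif, and the windows are chr1:193301744-193302043 (plus strand), chr1:193301993-193302292 (plus strand) and chr2:180225810-180226109 (minus strand). Those 6 letters describe the sequence only, and YAP or TEAD binding was not measured here.
Lamb3 upstream start: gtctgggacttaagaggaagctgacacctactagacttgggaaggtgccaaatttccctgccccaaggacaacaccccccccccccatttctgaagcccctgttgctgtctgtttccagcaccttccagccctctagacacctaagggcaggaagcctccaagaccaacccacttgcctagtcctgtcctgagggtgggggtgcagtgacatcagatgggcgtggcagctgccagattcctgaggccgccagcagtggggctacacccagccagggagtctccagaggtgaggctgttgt
Lamb3 downstream start: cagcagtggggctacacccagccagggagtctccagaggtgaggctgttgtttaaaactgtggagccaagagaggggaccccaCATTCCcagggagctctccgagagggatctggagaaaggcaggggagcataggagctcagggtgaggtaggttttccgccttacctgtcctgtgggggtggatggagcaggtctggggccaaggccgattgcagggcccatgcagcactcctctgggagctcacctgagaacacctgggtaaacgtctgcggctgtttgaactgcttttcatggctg
Lama5 start: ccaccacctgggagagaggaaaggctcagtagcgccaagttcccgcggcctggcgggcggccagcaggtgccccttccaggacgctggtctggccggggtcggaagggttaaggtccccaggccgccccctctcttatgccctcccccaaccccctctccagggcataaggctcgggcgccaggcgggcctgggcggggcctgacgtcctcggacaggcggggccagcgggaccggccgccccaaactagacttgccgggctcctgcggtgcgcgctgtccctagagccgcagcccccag

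Among the 8 genes, the levels differed widely. On a scale per length (CPM per kilobase of effective transcript length), the order was the same in all 4 groups: Lamc1, Lamb1, Lama5, Lama1, Lamb2, Lamb3, Lama4 and Lama3, from high to low. In CTR KD the levels ran from 34.1 ± 4.44 for Lamc1 and 24.5 ± 1.50 for Lamb1 down to 1.09 ± 0.157 for Lamb3, 0.293 ± 0.0328 for Lama4 and 0.235 ± 0.0238 CPM per kilobase for Lama3 (SD, n = 3). Neighbours in this order overlapped between libraries for Lama4 and Lama3 in YAP KD and for Lamb1 and Lama5 in YAP OE, and for no other neighbours in any group. The chains of laminin-111 and laminin-511 thus stood at the top of the order, and beta 3 and alpha 3, which are chains of laminin-332, near its foot.

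**Figure D1:**
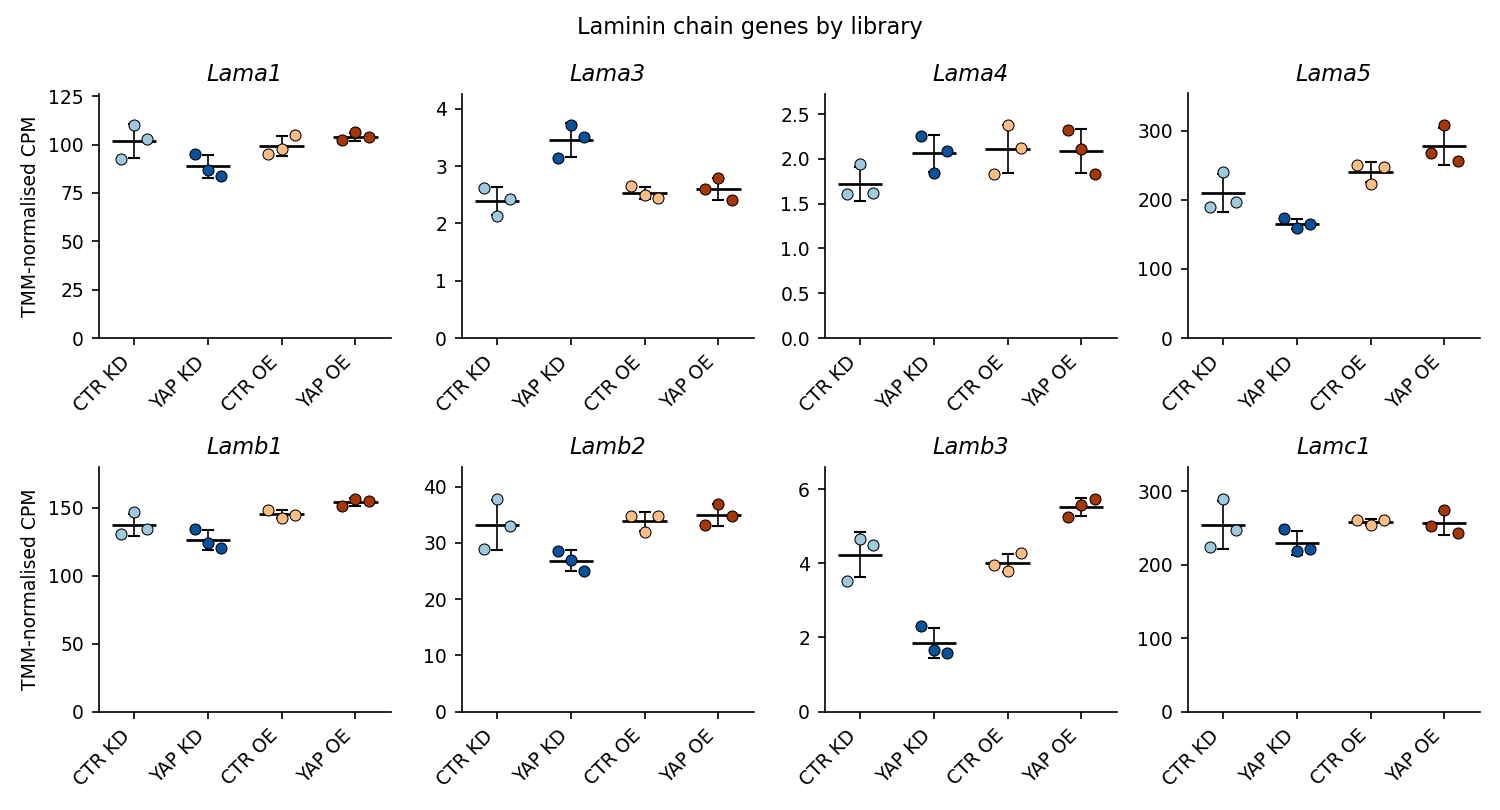
Level of each laminin chain gene in each library (vertical axis, CPM scaled by TMM factors, linear from 0; horizontal axis, the 4 groups; points, libraries; horizontal lines, means; bars, SD, n = 3). Lamb3 lies lower in every YAP KD library (1.59 to 2.30 CPM) than in CTR KD (3.53 to 4.66 CPM), and higher in every YAP OE library (5.25 to 5.74 CPM) than in CTR OE (3.78 to 4.28 CPM).

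Lama1 encodes alpha 1, the alpha chain of laminin-111. Its level was 92.3, 110 and 103 CPM in CTR KD and 95.1, 87.0 and 83.9 CPM in YAP KD. The groups overlapped, with a log2 fold change of -0.20 (SE 0.0675). In the overexpression it was 95.1, 97.6 and 105 CPM in CTR OE and 102, 106 and 104 CPM in YAP OE. The log2 fold change there was 0.071 (SE 0.0423, adjusted p = 0.523 by edgeR's quasi-likelihood test), and the groups again overlapped.

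Lama5 encodes alpha 5, the alpha chain of laminin-511 and laminin-521, and was the most abundant alpha chain in every library. It measured 189, 241 and 197 CPM in CTR KD against 173, 159 and 165 CPM in YAP KD, and the groups did not overlap. The log2 fold change was -0.34 (SE 0.0806), or -0.22 without CTR KD replicate 2, the highest of these libraries. In the overexpression it measured 250, 223 and 248 CPM in CTR OE against 268, 308 and 256 CPM in YAP OE, so that every YAP OE library lay above every CTR OE library. This difference of 0.21 on the log2 scale (SE 0.0620) did not pass the test across all genes (adjusted p = 0.123, edgeR quasi-likelihood). It passed in 2 of 11 alternative fits, at edgeR adjusted p = 0.0123 with no filter on low counts and 0.0192 after removal of the GC trend, and the adjusted p reached 0.308 in the others. With 1 library left out it passed in 1 of 6 fits, at edgeR adjusted p = 0.0356 without YAP OE replicate 3, and the log2 fold change was as low as 0.12 without YAP OE replicate 2 (adjusted p = 0.306).

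Lama4 encodes alpha 4, a chain of vessels and mesenchyme. It was among the lowest of the 8, at 1.60, 1.94 and 1.62 CPM in CTR KD and 2.25, 1.84 and 2.09 CPM in YAP KD. CTR OE gave 1.83, 2.37 and 2.12 CPM, and YAP OE 2.32, 2.10 and 1.84 CPM. Both pairs of groups overlapped, the log2 differences being 0.26 (SE 0.136) for knockdown and -0.016 (SE 0.138) for overexpression (adjusted p = 0.982, edgeR).

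Lama3 encodes alpha 3, the alpha chain that joins beta 3 in laminin-332. Unlike Lamb3, it was higher after knockdown, at 3.13, 3.71 and 3.51 CPM in YAP KD against 2.61, 2.13 and 2.43 CPM in CTR KD. The groups did not overlap, and the log2 fold change was 0.54 (SE 0.116) on 113 to 188 counts per library. In the overexpression CTR OE gave 2.64, 2.50 and 2.44 CPM and YAP OE 2.59, 2.79 and 2.41 CPM. These overlapped, 0.034 apart on the log2 scale (SE 0.112, edgeR adjusted p = 0.947). The 2 laminin-332 genes among the 8 thus differed from control in opposite directions on knockdown, and on overexpression Lamb3 was called and Lama3 was not, a difference between them that was not tested.

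Lamb1 encodes beta 1, shared by laminin-111, laminin-411 and laminin-511. It measured 131, 147 and 134 CPM in CTR KD and 135, 124 and 120 CPM in YAP KD, with overlapping groups and a log2 difference of -0.12 (SE 0.0564), or -0.068 without CTR KD replicate 2. CTR OE gave 148, 143 and 145 CPM and YAP OE 151, 157 and 155 CPM. All YAP OE libraries lay above all CTR OE libraries, yet the difference was small, 0.086 on the log2 scale (SE 0.0376), and was not called (edgeR adjusted p = 0.331).

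Lamb2 encodes beta 2, the beta chain of laminin-521 and of the neuromuscular junction. It measured 29.0, 37.8 and 33.0 CPM in CTR KD and 28.6, 27.0 and 25.0 CPM in YAP KD. The groups were separated narrowly, by CTR KD replicate 1 and YAP KD replicate 1, at a log2 fold change of -0.31 (SE 0.0890), which was -0.21 without CTR KD replicate 2. CTR OE gave 34.8, 31.9 and 34.7 CPM and YAP OE 33.1, 37.0 and 34.8 CPM. These overlapped, at 0.047 (SE 0.0508, edgeR adjusted p = 0.779) on the log2 scale.

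Lamb3 was the one beta chain with a large difference in both experiments. It measured 3.53, 4.66 and 4.50 CPM in CTR KD (161, 247 and 217 counts) and 2.30, 1.66 and 1.59 CPM in YAP KD (97, 73 and 85 counts). All YAP KD libraries lay below all CTR KD libraries, and the fitted level was 43.3% of the control, a log2 fold change of -1.21 (SE 0.160) that stayed between -1.39 and -1.10 with any 1 library left out. The stated reason for choosing the gene did not name its overexpression value, but earlier results of these data were known at the choice. In the overexpression Lamb3 measured 3.96, 3.78 and 4.28 CPM in CTR OE (205, 185 and 226 counts). It measured 5.25, 5.58 and 5.74 CPM in YAP OE (271, 244 and 322 counts). Every YAP OE library lay above every CTR OE library, and the level rose 1.38-fold, a log2 fold change of 0.46 (SE 0.0886, adjusted p = 0.0109 by edgeR's quasi-likelihood test over 14804 genes). The call was lost when either of 2 control libraries was left out: the edgeR adjusted p was 0.0567 without CTR OE replicate 1 and 0.0617 without CTR OE replicate 2, at log2 fold changes of 0.45 and 0.42. It was also lost, at the same log2 fold change of 0.46 with an adjusted p of 0.0608, when all 12 libraries shared 1 estimate of the spread.

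Lamc1 encodes gamma 1, the gamma chain of laminin-111, laminin-411, laminin-511 and laminin-521. It was the most abundant of the 8 per length, at 224, 289 and 247 CPM in CTR KD and 248, 218 and 221 CPM in YAP KD. The log2 fold change of -0.14 (SE 0.0855) became -0.040 without CTR KD replicate 2, and leaving out CTR KD replicate 1 gave -0.23. CTR OE gave 260, 254 and 261 CPM and YAP OE 253, 275 and 243 CPM, which gave -0.0070 on the log2 scale (SE 0.0466, adjusted p = 0.975 in edgeR). Both pairs of groups overlapped, and the sign of the overexpression value depended on the scaling, being 0.0013 with total counts.

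**Figure D2:**
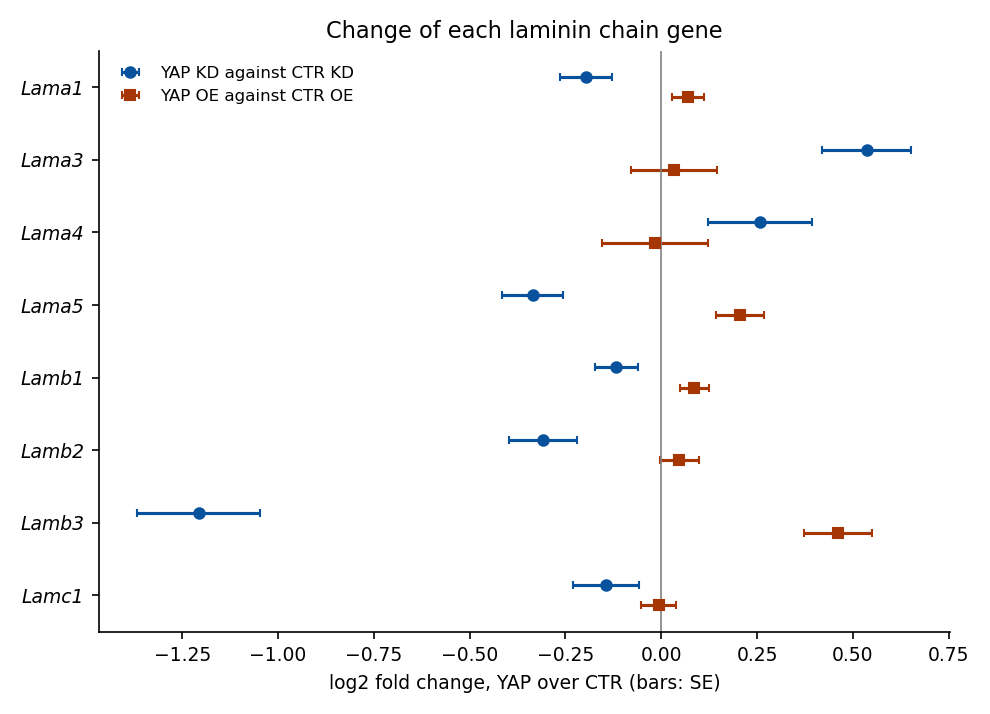
Log2 fold change of YAP over control for each of the 8 genes (horizontal axis; bars, SE of the edgeR fit; circles, knockdown; squares, overexpression; n = 3 libraries per group). Lamb3 lies furthest from 0 in both experiments, at -1.21 and 0.46, and Lama3 at 0.54 is the highest knockdown value.

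On knockdown, 4 of the 8 genes (Lama3, Lama5, Lamb2 and Lamb3) had groups without overlap, against 25.7% of all genes, and since this contrast chose the members nothing is read from this count. On overexpression 1 of 8 was called, Lamb3, which was higher, where 2.13% of 14804 genes were called (adjusted p under 0.05), 1.66% higher and 0.473% lower. Groups did not overlap for 3 of 8 (Lama5, Lamb1 and Lamb3, all higher), against 18.2% of all genes. The median log2 fold change of the 8 was -0.17 on knockdown and 0.059 on overexpression, beside 0.0058 and -0.0025 over all genes tested.

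Because a trimer takes 1 chain of each kind, the alpha chains (Lama2 included) and the beta chains were also summed per length in each library. The alpha sum was 27.3 to 33.8 CPM per kilobase in CTR KD and 24.2 to 26.4 in YAP KD. It was 31.1 to 34.0 CPM per kilobase in CTR OE and 34.5 to 39.5 in YAP OE, so that neither pair of groups overlapped. Beta sums were 32.3 to 33.9 CPM per kilobase in CTR OE and 34.4 to 36.1 in YAP OE. On knockdown they overlapped, at 29.6 to 34.3 CPM per kilobase in CTR KD and 26.5 to 29.9 in YAP KD. Lamc1 overlapped in both experiments, at 30.1 to 38.9 against 29.3 to 33.4 CPM per kilobase on knockdown and 34.1 to 35.0 against 32.7 to 36.9 on overexpression.

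The ratio of the alpha sum to Lamc1, which does not depend on the scaling of a library, was 0.907, 0.869 and 0.880 in CTR KD and 0.790, 0.825 and 0.822 in YAP KD. It was 0.948, 0.912 and 0.969 in CTR OE and 1.04, 1.07 and 1.06 in YAP OE. Thus relative to gamma 1, alpha chain RNA was lower in every YAP KD library and higher in every YAP OE library than in the matching controls. The beta sum relative to Lamc1 was also higher in every YAP OE library (1.01, 0.980 and 1.09) than in any CTR OE library (0.970, 0.948 and 0.950). The overexpression difference against gamma 1 was therefore not particular to the alpha chains. On knockdown the beta ratio overlapped, at 0.982, 0.883 and 0.940 in CTR KD and 0.897, 0.940 and 0.892 in YAP KD. Both ratios were looked at after the levels were seen, and no test was made of them.

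**Figure D3:**
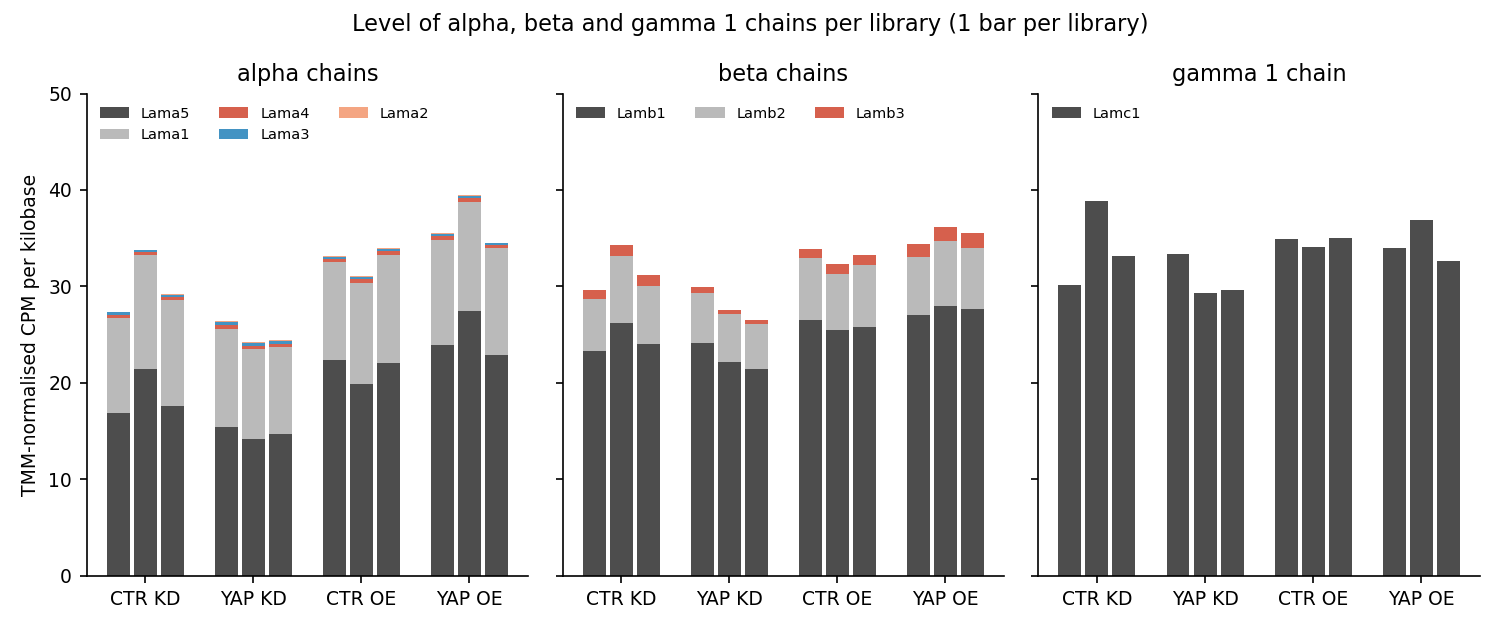
Summed level of alpha chains and of beta chains, and level of gamma 1, in each library (vertical axis, CPM per kilobase of effective length, linear from 0; each bar, 1 library, replicates 1 to 3 from left to right within a group; colours, genes). Lama5 and Lama1 make up nearly all of the alpha sum and Lamb1 most of the beta sum, while Lamb3 is the thin top layer of the beta bars.

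Within its chain type, Lamb3 made up 3.43% ± 0.326 of the beta sum in CTR KD and 1.69% ± 0.253 in YAP KD (SD, n = 3). On overexpression its share was 3.11% ± 0.173 in CTR OE and 4.03% ± 0.126 in YAP OE. The difference of 0.912 percentage points (higher in 3 of 3 YAP OE libraries than in any CTR OE library) gave p = 0.1 in a two-sided exact permutation test, the smallest p that 3 against 3 libraries allow. Lamb1 held 77.4% of the beta sum in CTR KD, 80.7% in YAP KD, 78.2% in CTR OE and 77.8% in YAP OE, so the composition of the beta chains was dominated by beta 1 throughout. Among alpha chains, Lama5 held 61.9%, 59.1%, 65.5% and 67.6% in the same order of groups. Lama3 held 0.793% in CTR KD and 1.36% in YAP KD, and 0.761% and 0.700% in CTR OE and YAP OE.

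The surroundings of the laminins were followed in a list of 30 genes: other laminin chains, the proteins that link or join the laminin network, laminin receptors, and hemidesmosome partners. On knockdown 27 were tested, of which 6 were called, all lower, with a median log2 fold change of -0.094. Over all 14606 genes tested there, 5.49% were called, 2.71% higher and 2.78% lower. The network partners Agrn (agrin, a heparan sulfate proteoglycan that binds laminin) and Col18a1 (collagen XVIII) fell by 0.37 and 0.38 on the log2 scale, at edgeR adjusted p of 0.00271 and 0.0193. Among receptors, Bcam, the Lutheran glycoprotein that binds laminin alpha 5, fell by 0.74, the syndecan Sdc4 by 0.26 and the integrin subunit Itga6 by 0.17 (edgeR adjusted p = 0.000169, 0.0109 and 0.0297). Dst (dystonin, a cytolinker of hemidesmosomes) fell by 0.27 (edgeR adjusted p = 0.0454), a call kept in 8 of 11 alternative fits and lost with total counts, the effective length offset and the replicate block (adjusted p = 0.0729, 0.0595 and 0.170). Agrn and Bcam were called with any 1 library left out, Sdc4 was lost without YAP KD replicate 2, and Col18a1 without CTR KD replicate 3, YAP KD replicate 2 or YAP KD replicate 3. Itga6 and Dst were called in 1 of the 6 such fits, that without CTR KD replicate 2, and the count of 6 ranged from 2 to 7 over these fits.

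On overexpression 28 of the 30 were tested, of which 4 were called, all higher, with a median log2 fold change of 0.094, beside the 2.13% of all genes called there. Bcam rose by 0.27 and Sparc, a matricellular protein of basement membranes, by 0.26 on the log2 scale (edgeR adjusted p = 0.00106 and 0.00223), and both were called with any 1 library left out. Sdc4 rose by 0.24 (edgeR adjusted p = 0.00764) and the laminin-binding integrin subunit Itga3 by 0.20 (edgeR adjusted p = 0.0406). Leaving out CTR OE replicate 2 or 3 ended the Sdc4 call, and Itga3 was called in 1 of the 6 fits with 1 library left out, that without YAP OE replicate 1. Of the 11 alternative fits 8 called Itga3, and total counts, all 12 libraries together and the replicate block did not (edgeR adjusted p = 0.0645, 0.138 and 0.0588). Bcam and Sdc4 were thus called in both experiments, in opposite directions. Bcam went from 84.8 ± 5.87 to 50.7 ± 2.61 CPM on knockdown and from 93.5 ± 1.96 to 112.8 ± 2.69 CPM on overexpression (SD, n = 3). Agrn, by contrast, had an overexpression value of 0.0010 (SE 0.0410), and Dst one of 0.022 (SE 0.0529), while the collagen IV genes Col4a1 and Col4a2 and the nidogens Nid1 and Nid2, which bridge laminin and collagen IV, were called in neither experiment.

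**Figure D4:**
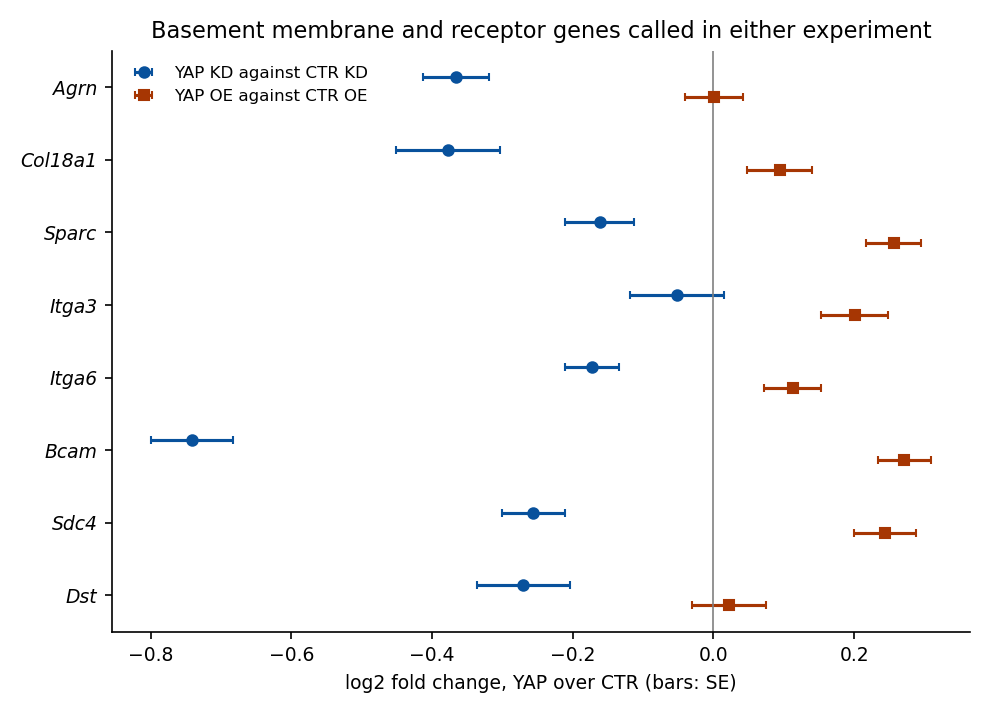
Log2 fold change of YAP over control for the basement membrane and receptor genes called in at least 1 experiment (horizontal axis; bars, SE; circles, knockdown; squares, overexpression; n = 3 libraries per group). Bcam lies at -0.74 and 0.27 and Sdc4 at -0.26 and 0.24, while Agrn lies at -0.37 on knockdown and near 0 on overexpression.

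Markers of cell types that make laminin were followed beside these values. The 9 markers of primitive and parietal endoderm, cells rich in laminin-111, summed to 10.3 to 10.8 CPM in CTR KD and 10.7 to 12.9 in YAP KD. In CTR OE they summed to 9.72 to 11.5 CPM and in YAP OE to 10.8 to 12.1. On knockdown 8 of these markers were tested and 0 were called. All 9 were tested on overexpression and 1 was called (Dab2, higher), beside 2.13% of all genes. Of these 9 log2 fold changes 5 were positive and 4 negative, with Gata4 at -0.26 and Cubn at -0.30 among the negative ones. The 9 trophoblast markers summed to 63.9 to 73.2 CPM in CTR KD, 81.8 to 82.5 in YAP KD, 102 to 113 in CTR OE and 128 to 159 in YAP OE. On knockdown 5 of the 9 were tested and 1 was called (Krt8, higher), beside 5.49% of all genes. Cdx2, Gata3, Elf5 and Hand1 were not tested there. On overexpression 7 were tested and 4 were called (Cdx2, Gata3, Krt8 and Krt18, all higher), beside 2.13% of all genes. Most of this sum came from keratins: Krt8 and Krt18 stood at 34.4 and 29.1 CPM in CTR KD and at 44.3 and 31.9 CPM in YAP KD. The transcription factor Cdx2 stood at 0.154 CPM in CTR KD and 0.157 in YAP KD, against 0.149 in CTR OE and 0.628 in YAP OE. The 8 fibroblast markers summed to 2.55 to 2.83 CPM in CTR KD and 3.28 to 3.94 in YAP KD, without overlap, and to 3.47 to 3.98 CPM in CTR OE and 3.72 to 4.21 in YAP OE. On knockdown 5 of the 8 were tested and not called, 4 with a positive and 1 with a negative log2 fold change. Col1a1 and Col1a2 had the largest, 1.10 and 0.73 (edgeR adjusted p = 0.158 and 0.122). Pdgfrb had 0.28, Thy1 0.10 and Col3a1 -0.21. Lum was at 0 in CTR KD and CTR OE. The part of any of these cell types in the laminin values was not tested.

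The genes whose pattern over the 12 libraries lay nearest to that of Lamb3 were ranked among 12387 genes by the root mean square (RMS) difference in log2 CPM relative to the control mean of the same experiment. The 5 nearest were Slc16a9 (a monocarboxylate transporter family member) at 0.173, Phldb3 at 0.186, D630045M09Rik at 0.192, Fgfbp1 (a secreted carrier of fibroblast growth factors) at 0.194 and Klhdc7a at 0.206, where the median gene lay at 0.661. The other laminin chain genes described here were left out of the ranking, so it does not compare them with Lamb3. The log2 fold changes of the 5 nearest genes ran from -1.30 to -0.995 on knockdown, beside -1.21 for Lamb3. On overexpression they were 0.23 for Slc16a9, 0.34 for Phldb3, 0.34 for D630045M09Rik, 0.53 for Fgfbp1 and 0.63 for Klhdc7a, beside 0.46 for Lamb3. Unlike Lamb3, Phldb3 had overlapping groups there, at 0.073 in YAP OE replicate 1 and 0.095 in CTR OE replicate 2 relative to the control mean. Since likeness was measured on these libraries, the values are a description and no test was made of them.

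**Figure D5:**
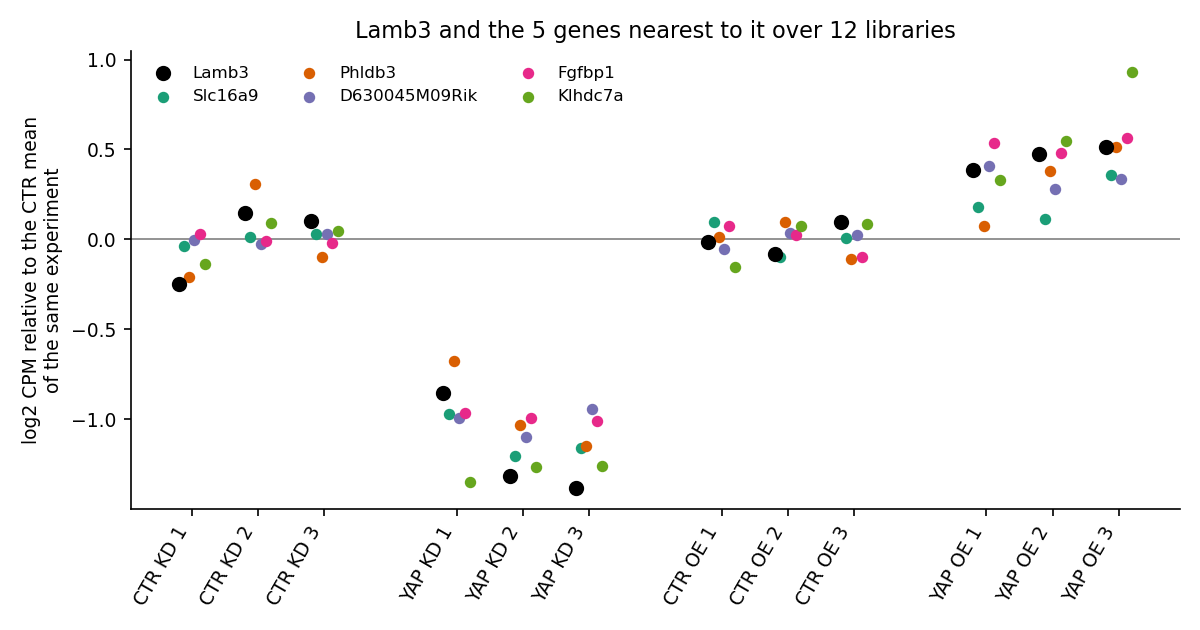
Level of Lamb3 and of the 5 genes nearest to it in each of the 12 libraries (vertical axis, log2 CPM relative to the control mean of the same experiment; horizontal axis, library; the zero line is the control mean). All 6 genes lie below 0 in the 3 YAP KD libraries and above 0 in the 3 YAP OE libraries.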

How the data were processed

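Total RNA of 12 libraries was sequenced, and the deposited tables give 1 row per gene and library. The authors aligned reads with STAR to mm10 (GRCm38) and assigned them to curated RefSeq transcripts with RSEM (versions and strand setting not given in the sources used here). The deposited expected counts are estimated reads per gene, not normalized, and are whole numbers for all 8 laminin genes. The deposited TPM values are length-scaled by the authors and served as an alternative for chain shares. FPKM values were not used.

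Expected counts were rounded and analysed in R 4.3.3 with edgeR 4.0.16: filterByExpr, TMM factors, and the two-sided quasi-likelihood F test within each experiment, with Benjamini-Hochberg adjustment over all genes tested and a threshold of 0.05. Each SE is the absolute log2 fold change over the square root of F. Printed CPM values use TMM factors over the 12 libraries. The procedure was tested on simulated counts, drawn independently with the same spread setting for all genes. Those counts carried no GC shift between libraries, so they were simpler than the real ones. Alternatives used RLE, upper-quartile and total-count scaling, other filters, DESeq2 1.42.0, limma-voom (limma 3.58.1), all 12 libraries together, an effective length offset, a replicate block, and, chosen after seeing the data, removal of a GC trend (GC was known for 87.4% and 87.3% of tested genes). The planned test of mean transcript length gave no value, since the lengths of the 8 laminin genes were identical in every library.

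The laminin genes and all lists were chosen with earlier results of these data known. Genes outside the laminins were named from the fixed lists, when called in either experiment or where a statement on a list or marker set needed them, or, for likeness to Lamb3, as the 5 lowest RMS differences among genes with a mean of at least 50 counts. p-values measure the spread between the 3 libraries of a group. Promoters are RefSeq sequences of GRCm38.p6. A gene of the planned list is not reported here.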

Additional observations from a re-analysis of the deposited data

Results flagged for a closer look

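In 2 of the 8 genes every YAP KD library lay below every CTR KD library and every YAP OE library above every CTR OE library. Over all genes, groups did not overlap, in either direction, for 25.7% on knockdown and 18.2% on overexpression. The share of all genes with both was not computed, so nothing is read from this count. For Lamb3 the overexpression log2 fold change exceeded the knockdown one by 1.67, and for Lama5 by 0.541. The difference between the experiments was not tested. The knockdown value of Lamb3 entered the choice of genes, and the 2 experiments used different agents and their own controls.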

How the results depend on the processing

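Depth limits Lamb3, Lama3 and Lama4 most, since they have few counts, and 3 libraries per group limit every test. On overexpression 1 of the 8 genes was called, against 2 with no filter, 2 after removal of the GC trend, 0 with all 12 libraries in 1 edgeR fit, and 0 to 2 with 1 library left out. Lamb3 kept its direction throughout. Its overexpression log2 fold change passed in 10 of 11 alternatives (edgeR, limma or DESeq2 adjusted p from 0.000804 to 0.0608), was not called with all 12 libraries (0.46), and was 0.42 to 0.51 with 1 library left out, called in 4 of those 6 fits. The cause was not tested.

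Overexpression values near 0 changed sign: Lamc1 to 0.0013 with total counts and between -0.059 and 0.027 with 1 library left out, Lama4 between -0.11 and 0.072, and Lama3 between -0.018 and 0.084. Of the 30 basement membrane and receptor genes, 6 were called on knockdown, 2 to 7 with 1 library left out, and 4 on overexpression, 2 to 4 with 1 library left out. Replicate numbers were not used to pair the libraries in the main fits. Deviations from the group mean of libraries with the same number correlated at -0.39, -0.28 and 0.013 on knockdown, and at 0.071, 0.080 and -0.022 on overexpression. So few values cannot show whether the libraries were paired. The study names paired samples for its Student's t tests and states no pairing for its edgeR fits. With the replicate block 2 of the list were called on knockdown.

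Over all genes, 802 were called on knockdown, against 193 with the replicate block, 1261 with all 12 libraries, 1485 after GC removal and 298 to 1019 with 1 library left out. On overexpression 316 were called, against 556 with no filter and 154 to 327 with 1 library left out.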
